A study of Mus musculus with 36 samples.

Results

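The serine/arginine-rich (SR) proteins and the heterogeneous nuclear ribonucleoproteins (hnRNPs) were followed through 6 cohorts of a myotonic dystrophy type 1 (DM1) heart mouse model in 2 heart chambers. Their genes were taken by symbol alone: Srsf followed by a number, Hnrnp followed by letters or numbers, and Tra2a or Tra2b. Of 55291 symbols measured, 33 matched once 4 symbols that carry -ps had been left out, and 32 of them had a mean of at least 1 TPM (transcript abundance scaled to gene length and library size) over the 36 libraries. The only match below that level was Srsf12, at a mean of 0.0358 TPM. The 32 members comprised 10 SR proteins, the 2 SR-like proteins Tra2a and Tra2b, and 20 hnRNPs, and all 32 entered both tests described here.

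All animals were CUG960 mice, homozygous for the TREDT960I transgene, in which a tetracycline-responsive promoter drives a human DMPK gene with an interrupted CTG repeat, and hemizygous for MHCrtTA, in which the cardiomyocyte α-myosin heavy chain promoter drives the reverse transactivator. The +dox cohort received doxycycline (dox) from postnatal day 1 and made the repeat RNA throughout, the +/–dox cohort came off dox at 9 weeks of age, and the –dox cohort never received it, so that dox itself and the repeat RNA it induces cannot be told apart. In a further 3 cohorts dox was continued and AAV9 was given by tail vein at 9 weeks, with tagged human MBNL1 (3XFLAG), MBNL2 (3XMYC) or both of them under the cardiac TNNT2 promoter, and these are called MBNL1, MBNL2 and MBNL1+MBNL2. No cohort that received an AAV9 without MBNL was sequenced among these libraries, so delivery of AAV9 and MBNL cannot be told apart either. Left ventricle and atria were taken at 21 weeks from 3 animals per cohort, and RNA was sequenced from whole tissue, in which fewer cells of a type and less RNA per cell cannot be told apart.

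SR proteins bind exonic enhancer sequences through RNA recognition motifs and recruit the spliceosome through their arginine/serine domain, and many hnRNPs bind silencer sequences and oppose exon inclusion. The balance between both families is a classic determinant of alternative splicing in muscle, and many of their own transcripts contain exons that send them to nonsense-mediated decay when included. In DM1, expanded CUG repeat RNA sequesters MBNL proteins, and hnRNP H and hnRNP A1 are among the other RNA-binding proteins studied in that disease.

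The libraries held between 55 and 97.1 M expected counts, and the lowest count of any member in any library was 391, so counting error was small for every member. The median biological coefficient of variation of the members was 8.78%, against 14.2% over the 19231 genes tested. The ventricular MBNL1 library of replicate 1 stood apart, with 16885 genes above 0 against 20578 to 24041 in the other 35, and member and pathway changes with MBNL1 that passed the adjusted p are given with and without it. Ventricular markers (Myl2, Irx4 and Myl3) summed to between 19800 and 27700 TPM in ventricle and to at most 805 TPM in atria, and atrial markers (Myl4, Myl7, Sln and Nppa) to between 39700 and 61300 TPM in atria and to at most 1010 TPM in ventricle. Replicates 1 and 2 of 5 cohorts were named in 1 series of library numbers, and replicate 3 of those cohorts and all MBNL1+MBNL2 libraries in another. By the study's sample list, 3 males made up the MBNL1+MBNL2 cohort and 2 males and 1 female each of the others.

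Levels were first compared between members per length, in TPM. Hnrnpa2b1, which encodes hnRNP A2/B1, was the most abundant member in every library, at 342, 378 and 420 TPM (lowest, median and highest of 18) in ventricle and 333, 388 and 416 TPM in atria. Hnrnpa1, the gene of the splicing repressor hnRNP A1, had 96.8, 122 and 136 TPM in ventricle and 162, 196 and 222 TPM in atria. Hnrnpa3, a close relative, had 106, 123 and 163 TPM in ventricle and 123, 142 and 162 TPM in atria. Hnrnpa1 and Hnrnpa3 stood in ranks 2 to 4 in every library, and in ventricle their means of 118 ± 9.82 and 127 ± 15.9 TPM (SD, n = 18) lay within their spread.

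Hnrnpk, a poly(C)-binding protein, followed with means of 100 ± 5.30 TPM in ventricle and 138 ± 6.17 TPM in atria (SD, n = 18), and Hnrnpf, which binds G-rich sequences, with 86.0 ± 5.14 and 114 ± 5.87 TPM. The lowest members were Srsf9, at 9.91 ± 1.47 TPM in ventricle and 17.3 ± 2.46 TPM in atria, Hnrnpll at 10.3 ± 1.08 and 17 ± 1.32 TPM, and Hnrnph3 at 15.2 ± 1.53 and 15.8 ± 2.18 TPM. Srsf9, Hnrnpll and Hnrnph3 overlapped in their library values. The mean TPM of the members thus spanned a 27.8-fold range around a median of 36.8 TPM.

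By family, the 5 hnRNP A/B genes held 41.3% of the members' TPM and the 10 SR genes 17.8%. The 4 hnRNP F/H genes held 11.3%, the hnRNP U, L and D groups 5.88%, 3.96% and 3.07%, and Tra2a and Tra2b together 2.98%. Srsf5 was the highest SR gene, at 64.5 ± 8.88 TPM in ventricle and 91.8 ± 12.6 TPM in atria. The order of the members hardly varied between libraries, with a median Spearman correlation of 0.972 between pairs of libraries across the 32 genes, which are not independent replicates.

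**Figure D1:**
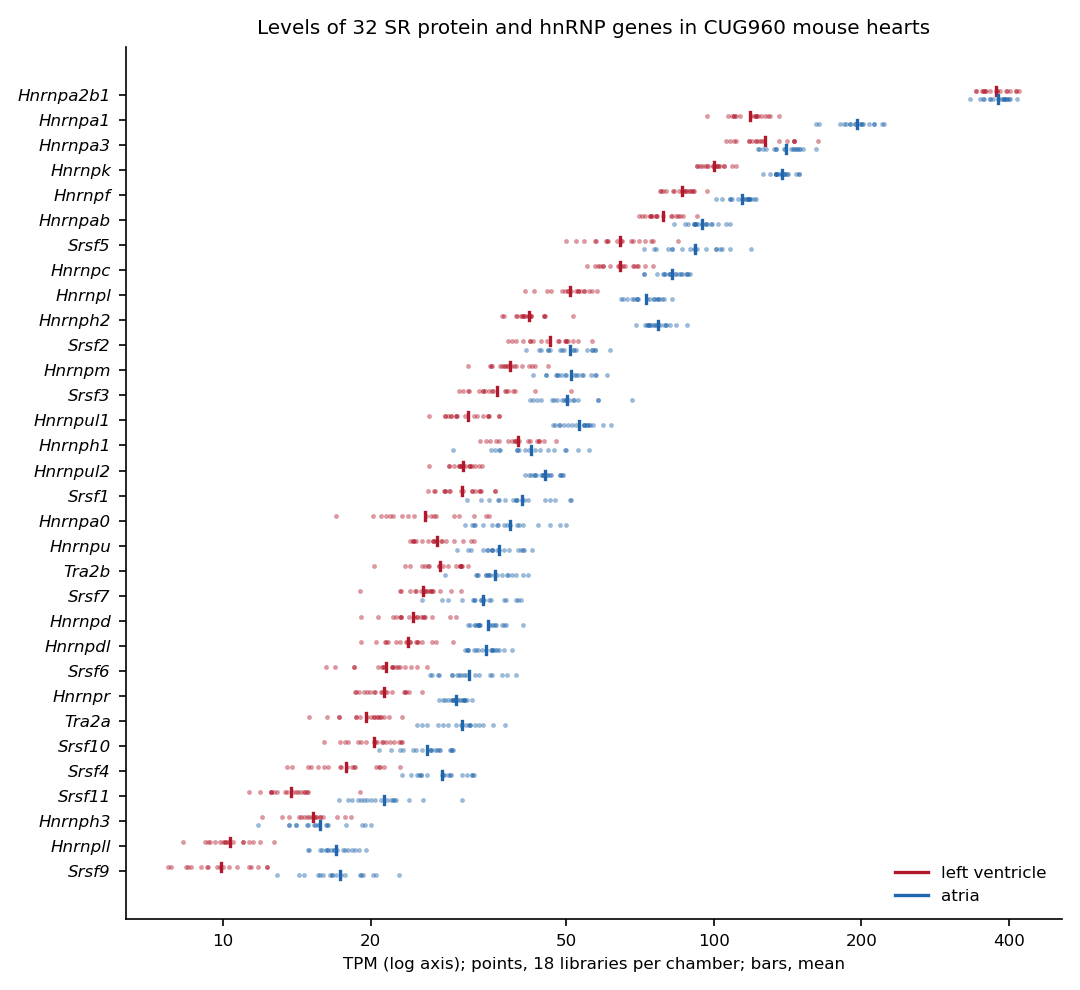
TPM of each of the 32 members (log axis) in the 18 left ventricular (red) and 18 atrial (blue) libraries, with bars at the chamber means. Hnrnpa2b1 stands alone at a mean of 378 TPM, and the lowest, Srsf9, has a mean of 13.6 TPM.

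The members lay on 17 chromosomes, with at most 4 on any of them. In the GENCODE M21 annotation (GRCm38), 21 of the 32 (65.6%) have a transcript marked for nonsense-mediated decay, and 24 (75%) one with a retained intron. Over the 14991 protein-coding genes tested, 26.6% and 54.7% have such transcripts, and among the 12 SR and SR-like members 11 (91.7%) have one marked for nonsense-mediated decay. These are properties of the annotation and carry no test. A gene on the opposite strand overlaps 13 members, and the libraries were made with a strand-marking kit, but the strand setting used in counting is not given in the sources used here.

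Printed here is a selection of 4 coding segments in which annotated proteins of Hnrnpa2b1, Hnrnpc and Hnrnpd differ, the 3 members whose transcript length differed between cohorts. They were read from the GENCODE M21 transcripts (GRCm38, minus strand for all 3 genes) and are written 5′ to 3′ with the alternative segment in capitals and 15 transcript bases on either side in lower case. The Hnrnpa2b1 exon (chr6:51467391-51467426, 36 bases) is found in hnRNP B1 and skipped in hnRNP A2. The Hnrnpc segment (chr14:52081789-52081827, 39 bases) lengthens an exon in hnRNP C2 relative to C1. The Hnrnpd exons (chr5:99976534-99976590, 57 bases, and chr5:99963731-99963877, 147 bases) combine into the 4 forms of hnRNP D, also called AUF1. Each of the 4 is a multiple of 3 bases long.
Hnrnpa2b1 exon: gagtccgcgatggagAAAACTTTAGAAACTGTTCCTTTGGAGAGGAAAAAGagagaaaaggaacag
Hnrnpc segment: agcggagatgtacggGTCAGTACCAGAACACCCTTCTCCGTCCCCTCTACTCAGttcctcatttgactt
Hnrnpd first exon: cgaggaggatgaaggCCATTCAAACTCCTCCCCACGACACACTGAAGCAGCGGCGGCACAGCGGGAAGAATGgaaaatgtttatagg
Hnrnpd second exon: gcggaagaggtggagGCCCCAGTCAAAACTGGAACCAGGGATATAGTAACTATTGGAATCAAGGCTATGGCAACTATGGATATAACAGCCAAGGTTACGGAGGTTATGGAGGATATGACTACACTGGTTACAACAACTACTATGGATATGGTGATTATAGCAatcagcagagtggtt

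Differences between cohorts were tested with edgeR's quasi-likelihood test on the whole table, and from here on levels are TMM-normalised CPM, that is counts scaled to library size and not corrected for length. A gene was called at an adjusted p below 0.05 (Benjamini-Hochberg over all 19231 genes) and a change of at least 1.5-fold. The words rose and fell are used for members with an adjusted p below 0.05, whatever the size. In 14 comparisons no member was called by edgeR, and none by DESeq2. Of the 448 pairs of a member and a comparison, 67 had an unadjusted p below 0.05 by edgeR, 27 had an adjusted p below 0.05 by edgeR and 32 by DESeq2. The 95% interval of the change lay within 1.5-fold either way for 440 of the 448. By comparison, it did so for between 33.9% and 55.4% of all genes. In ventricular –dox against +dox the median standard error was 0.092 for the members and 0.169 for all genes.

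The first question was whether the repeat RNA changed the amount of splicing factor transcript, for which –dox was compared with +dox. In ventricle, none of the 32 members was called, against 7.6% of all genes, and 1 passed the adjusted p alone, against 20.9% of all genes. In atria none was called, against 5.23% of all genes, and 4 passed the adjusted p alone, against 15.9%. The member changes ran from -0.17 to 0.26 in log2 fold change in ventricle and from -0.33 to 0.40 in atria, and their medians of -0.004 and 0.022 were close to those of all genes tested, 0.009 and 0.027. The median absolute log2 fold change was 0.065 for the members and 0.273 for all genes in ventricle, and 0.050 and 0.250 in atria. The 95% intervals of all 32 members in ventricle and of 31 in atria lay within 1.5-fold, which held for 43.9% and 45.8% of all genes. The exception was Srsf5 in atria, with an upper bound of 1.59-fold.

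Srsf6 (chr2:162931528-162937121, plus strand), the SR protein also called SRp55, was the only member that rose in both chambers. Its ventricular CPM was 48.5, 50.8 and 60.4 in the +dox libraries and 66.7, 57.7 and 66.5 in the –dox libraries, so the groups overlapped. Its atrial CPM was 52.9, 54.3 and 53.3 with dox and 64.9, 66.4 and 73.0 without, so that every –dox library was higher. The log2 fold change was 0.258 ± 0.095 (SE, n = 3 per group) in ventricle, at an edgeR adjusted p of 0.05 that is just under the threshold, and 0.347 ± 0.095 in atria, at an adjusted p of 0.0104. Without +dox replicate 1, +dox replicate 2, –dox replicate 1 or –dox replicate 3 the ventricular adjusted p was 0.239, 0.158, 0.171 and 0.162, and scaling to library totals alone gave 0.176 at an adjusted p of 0.257. With no filter on low counts it was 0.0794 and with only the ventricular libraries 0.075. The atrial adjusted p was 0.0692 without –dox replicate 3 and below 0.05 without any other library.

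Srsf5 (chr12:80945504-80950507, plus strand), the SR protein also called SRp40, had atrial values of 64.4, 58.1 and 62.2 CPM with dox and 81.7, 69.3 and 92.0 CPM without. All –dox libraries were above all +dox libraries, and the change was 0.396 ± 0.133 in log2 (adjusted p = 0.0403, edgeR). The ventricular values were 70.9, 66.2 and 71.2 CPM with dox and 86.4, 70.5 and 84.8 CPM without, which overlapped, with a change of 0.214. The edgeR adjusted p of the atrial change rose above the threshold without +dox replicate 1, 2 or 3 (0.0787, 0.144 and 0.08), without –dox replicate 1 or 3 (0.094 and 0.22), with scaling to library totals (0.0548) and with no filter on low counts (0.0949).

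Srsf9 (chr5:115327177-115333080, plus strand), a small SR protein and the lowest member in TPM, fell in atria. It had 10.7, 11.7 and 12.4 CPM with dox and 9.58, 8.66 and 9.44 CPM without, with no overlap, and the log2 fold change was -0.329 ± 0.103 (adjusted p = 0.026, edgeR). In ventricle the values of 7.73, 7.52 and 8.55 CPM with dox and 7.46, 6.84 and 8.18 CPM without overlapped. Leaving out atrial +dox replicate 2 or 3, or –dox replicate 2 or 3, gave adjusted p of 0.0707, 0.101, 0.112 and 0.0546, and leaving out the filter on low counts gave 0.0534.

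Hnrnph1 (chr11:50376990-50386528, plus strand) encodes hnRNP H, which binds runs of G. Its atrial CPM was 54.3, 48.9 and 49.9 with dox and 64.5, 61.1 and 62.3 without, with no overlap, a log2 fold change of 0.295 ± 0.101 and an adjusted p of 0.042 by edgeR. In ventricle it was 70.8, 73.2 and 67.2 CPM with dox and 82.1, 74.8 and 75.9 CPM without, without overlap and with a change of 0.140 that did not pass. The adjusted p of the atrial change lay between 0.0555 and 0.146 when any 1 of the 6 libraries was left out, and was 0.101 with scaling to library totals, 0.0587 with no filter on low counts and 0.0949 with only the atrial libraries. Whether the –dox against +dox change differed between chambers was tested directly by an interaction term: no member was called, against 0.764% of all genes, none passed the adjusted p alone, against 1.03%, and none had an unadjusted p below 0.05 by edgeR or an adjusted p below 0.05 by DESeq2. With a term for each animal, which pairs its chambers, none was called or passed, against 299 and 592 of the 19231 genes tested. In that fit 1 member had an unadjusted p below 0.05 by edgeR, Hnrnpa1 (log2 0.251, adjusted p = 0.166). The differences between chambers ran from -0.20 to 0.25 in log2. For 31 of the 32 the 95% interval lay within 1.5-fold, which held for 41.5% of all genes. The exception was Hnrnpa0, with an interval from 0.629-fold to 1.20-fold.

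**Figure D2:**
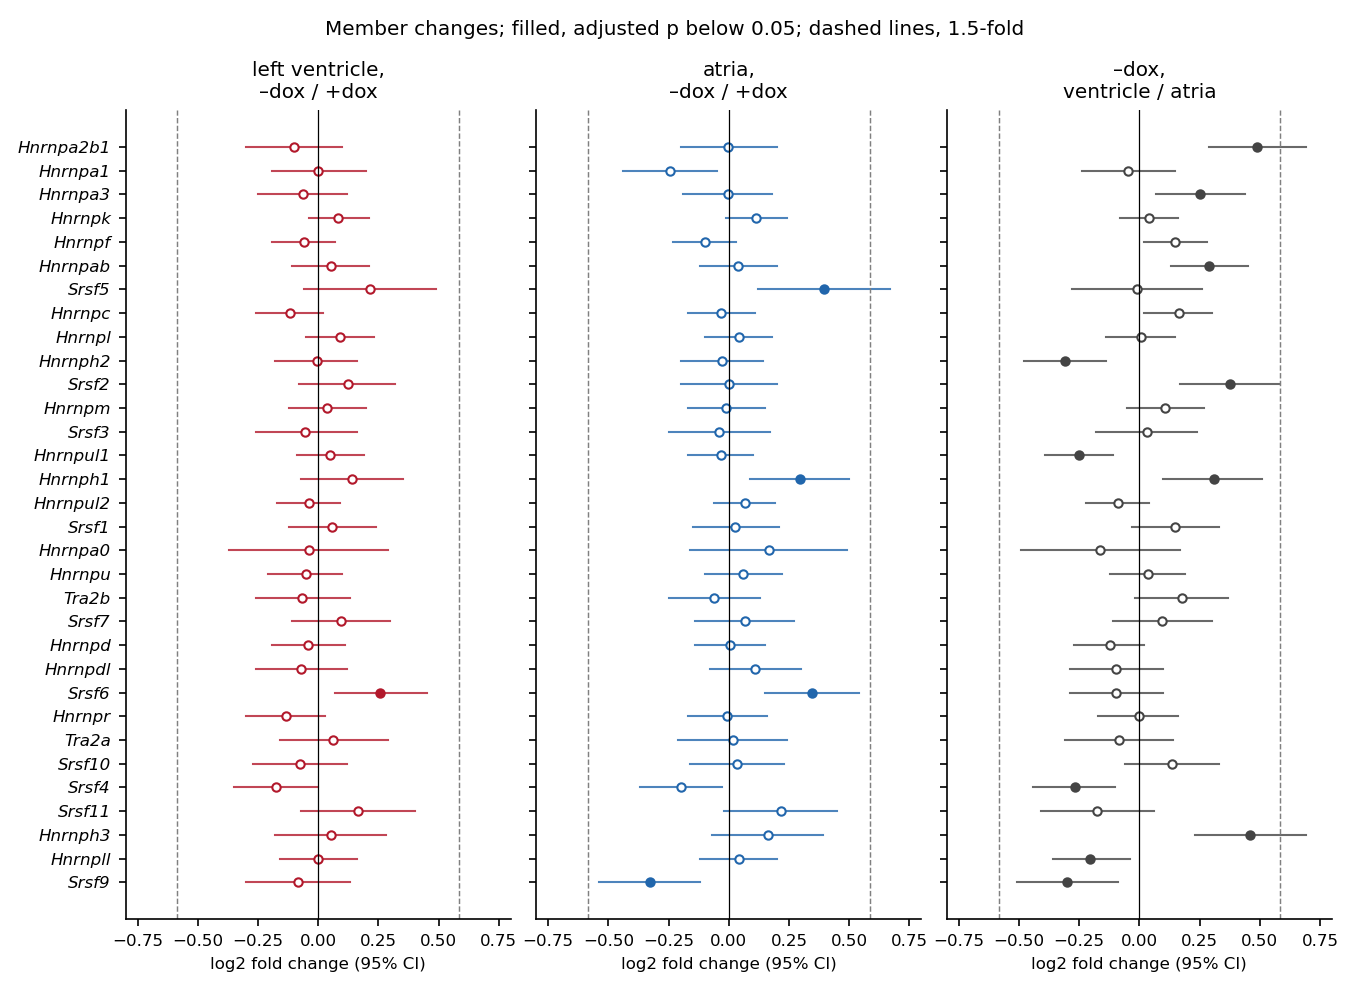
Log2 fold change with its 95% interval for each member, ordered by mean TPM, for –dox against +dox in left ventricle (red) and atria (blue) and for ventricle against atria in –dox (grey); filled points have an adjusted p below 0.05 by edgeR and dashed lines mark 1.5-fold. No point lies beyond a dashed line, and the largest change shown is Hnrnpa2b1 between the chambers at 0.488, which scaling to library totals lowers to 0.171.

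The second question was whether taking the animals off dox at 9 weeks gave the same picture. In ventricle, none of the members was called in +/–dox against +dox, against 6.6% of all genes, and 4 passed the adjusted p alone, against 21.8%. In atria none was called, against 3.99%, and 3 passed, against 12.6%. The +dox libraries are shared with the preceding comparison, so the values that follow stand beside it and do not repeat it. In ventricle Srsf6 rose, with 63.6, 70.1 and 67.6 CPM in +/–dox, all above the +dox libraries, and a log2 fold change of 0.334 ± 0.095 (adjusted p = 0.0104, edgeR). Without +dox replicate 1 or +/–dox replicate 2 its adjusted p was 0.0786 and 0.0513, and with scaling to library totals 0.0842.

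Srsf10 (chr4:135855747-135869908, plus strand), an SR protein that acts as a repressor when dephosphorylated, fell in ventricle, from 57.9, 62.3 and 54.7 CPM in +dox to 45.4, 43.2 and 49.5 CPM in +/–dox. The groups did not overlap, and the log2 fold change was -0.340 ± 0.095 (adjusted p = 0.0092, edgeR), with adjusted p of 0.0508 without +dox replicate 2 and 0.0555 without +/–dox replicate 2. In –dox the same gene had 50.8, 64.7 and 50.6 CPM in ventricle, a range that overlapped +dox, and its change there was -0.074. Hnrnpl, which binds CA-rich RNA, rose in +/–dox ventricle by 0.216 ± 0.070 in log2 (adjusted p = 0.0244, edgeR), from 77.3, 71.3 and 75.3 CPM to 85.2, 87.6 and 87.5 CPM. The groups did not overlap, and its adjusted p was 0.107, 0.0507, 0.0724 and 0.0697 without +dox replicate 2 or 3 or +/–dox replicate 2 or 3, and 0.212, 0.0692 and 0.0566 with scaling to library totals, no filter on low counts and only the ventricular libraries.

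Hnrnpc, which binds U-rich tracts in pre-mRNA, fell in +/–dox ventricle from 98.9, 102 and 98.7 CPM to 88.7, 83.7 and 91.1 CPM. The log2 fold change was -0.185 ± 0.068, at an adjusted p of 0.0498 by edgeR that lay between 0.0558 and 0.194 when any 1 library was left out and was 0.063 with DESeq2's size factors, 0.101 with no filter and 0.117 with only the ventricular libraries. In +/–dox atria, Srsf9 fell to 8.76, 8.20 and 9.23 CPM, below every +dox library, with a log2 fold change of -0.409 ± 0.103 (adjusted p = 0.00726, edgeR). Of the 16 changes against +dox that passed the adjusted p, this is the only one that stayed below 0.05 in every refit, with adjusted p between 0.00143 and 0.0372.

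Srsf5 rose in +/–dox atria to 83.2, 91.2 and 80.1 CPM, above every +dox library, by 0.463 ± 0.133 in log2 (adjusted p = 0.0197, edgeR), and its adjusted p was 0.0918 without +dox replicate 2 and 0.103 without +/–dox replicate 2. Srsf4, the SR protein also called SRp75, fell there from 37.1, 39.4 and 38.0 CPM to 33.6, 32.1 and 30.8 CPM, a log2 fold change of -0.249 ± 0.084 (adjusted p = 0.0479, edgeR), with adjusted p between 0.0644 and 0.173 when any 1 library was left out and of 0.0719 with no filter on low counts. Srsf6, at 63.2, 61.2 and 69.1 CPM, was above every +dox library in atria too but had an adjusted p of 0.057.

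The –dox and +/–dox cohorts were also compared directly. None of the members was called in ventricle, against 0.0312% of all genes, and none passed the adjusted p alone, against 0.0572%. In atria the shares of all genes were 0.0104% and 0.0208%, and again no member was called or passed. By edgeR, 1 member in ventricle and 0 in atria had an unadjusted p below 0.05, and by DESeq2 0 had an adjusted p below 0.05 in either chamber. The 1 member was Srsf10, which was 1.20-fold higher in –dox ventricle (log2 0.266, 95% interval 0.07 to 0.46, edgeR adjusted p = 0.434). All 32 intervals lay within 1.5-fold in both chambers, which held for 54.1% of all genes in ventricle and 55.4% in atria.

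**Figure D3:**
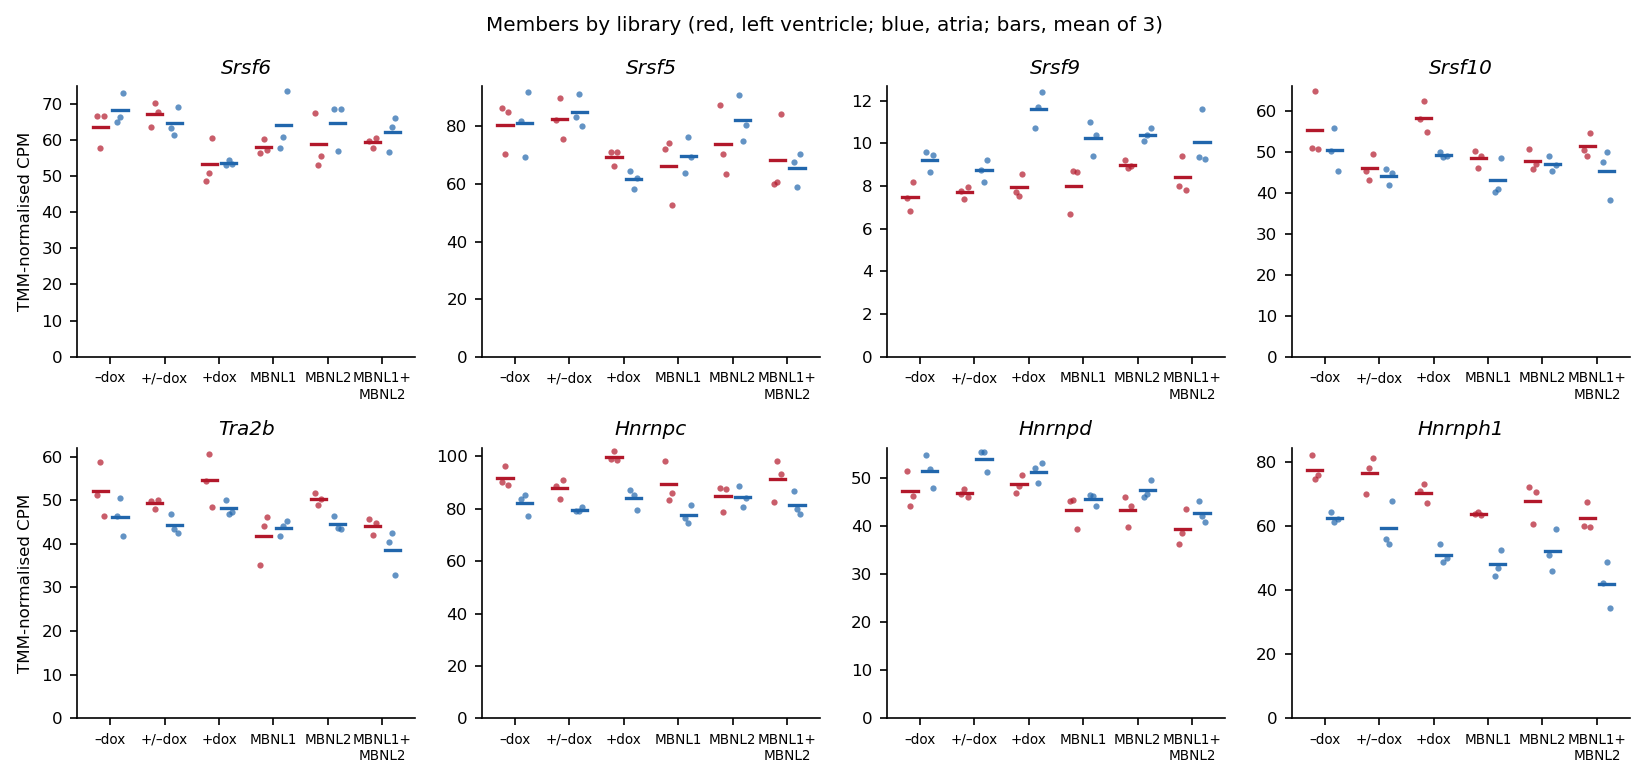
TMM-normalised CPM of 8 members with an adjusted p below 0.05 in at least 1 comparison against +dox, in every library by cohort (red, left ventricle; blue, atria; points, 3 libraries per group; bars, their mean; axes start at 0). The +dox libraries lie lowest for Srsf6 among the atrial groups, at 52.9 to 54.3 CPM, and highest for Srsf9 among the atrial group means, at 11.6 CPM.

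The third question was whether MBNL delivered to animals kept on dox changed the same genes. In ventricle none of the members was called for MBNL1, MBNL2 or MBNL1+MBNL2 against +dox, where 2.66%, 1.52% and 2.65% of all genes were called. The adjusted p alone was passed by 1, 1 and 2 members, against 8.95%, 7.43% and 8.34% of all genes. In atria none was called, against 0.13%, 0.0052% and 0.26% of all genes, and none passed the adjusted p alone, against 0.348%, 0.0104% and 0.686%. By edgeR, 2, 2 and 7 members had an unadjusted p below 0.05 in atria, and by DESeq2 0, 0 and 1 had an adjusted p below 0.05. The 1 was Hnrnpd in MBNL1+MBNL2.

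Tra2b (chr16:22244549-22266005, minus strand), an SR-like splicing activator that binds GAA-rich exons, fell in ventricle with MBNL1. It had 54.5, 60.7 and 48.5 CPM in +dox and 35.2, 44.2 and 46.1 CPM with MBNL1, with no overlap, and the log2 fold change was -0.386 ± 0.095 (adjusted p = 0.0105, edgeR). The lowest value came from replicate 1 of MBNL1, the library with few genes above 0, and without it the change was -0.276 with an adjusted p of 0.0826. Without +dox replicate 2 the adjusted p was 0.0672.

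With MBNL1+MBNL2 the ventricular values of Tra2b were 45.7, 42.0 and 44.7 CPM, again below every +dox library, and the change was -0.308 ± 0.095 (adjusted p = 0.041, edgeR). Its adjusted p was 0.0921 and 0.197 without +dox replicates 1 and 2, and 0.0877, 0.148 and 0.0541 without MBNL1+MBNL2 replicates 1, 2 and 3. It was 0.0818 with the library number series as a term, 0.0562 with DESeq2's size factors, and 0.114 with only the ventricular libraries. With MBNL2 it had 51.7, 48.9 and 50.2 CPM, inside the +dox range, and a change of -0.119. In atria the change with MBNL1+MBNL2 was -0.320 ± 0.095, from 50.1, 46.9 and 47.4 CPM to 40.5, 42.4 and 32.9 CPM, with no overlap and an adjusted p of 0.141.

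Hnrnpd, whose protein AUF1 binds AU-rich elements and marks mRNA for decay, fell in ventricle with MBNL1+MBNL2 from 46.9, 48.3 and 50.5 CPM to 36.3, 38.5 and 43.4 CPM. No MBNL1+MBNL2 library reached the +dox range, and the log2 fold change was -0.301 ± 0.072 (adjusted p = 0.00765, edgeR), -0.281 at an adjusted p of 0.0133 with the library number series as a term and at adjusted p of 0.0809 without MBNL1+MBNL2 replicate 1 and 0.0628 with only the ventricular libraries. In atria the same comparison gave 51.9, 48.8 and 53 CPM against 45.1, 42.1 and 40.8 CPM, a change of -0.264 ± 0.072 with no overlap, at an adjusted p of 0.0913. With MBNL1 or MBNL2 alone the ventricular change of Hnrnpd was -0.166 in both, at adjusted p of 0.145 and 0.160. Whether the changes of Tra2b and Hnrnpd differed between MBNL cohorts or chambers was not tested.

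Hnrnpc fell in ventricle with MBNL2, to 88.0, 78.7 and 87.4 CPM against 98.9, 102 and 98.7 CPM in +dox. The change was -0.238 ± 0.068 (adjusted p = 0.0306, edgeR), and its adjusted p lay between 0.0523 and 0.149 when any 1 library was left out and was 0.102 with scaling to library totals, 0.0668 with no filter and 0.106 with only the ventricular libraries. With MBNL1 and with MBNL1+MBNL2 the changes were -0.161 and -0.128, at values of 98.4, 83.5 and 86.0 CPM and of 82.7, 98.2 and 93.2 CPM. Without MBNL1 replicate 1, the highest of its group, the MBNL1 change was -0.237 at an adjusted p of 0.0451 by edgeR. The +dox libraries of Hnrnpc were thus higher than every other ventricular library, and they are the shared reference of all 5 ventricular comparisons.

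Over all members, the log2 fold changes in ventricle were negative for 25, 22 and 26 of 32 with MBNL1, MBNL2 and MBNL1+MBNL2, with medians of -0.099, -0.086 and -0.118. The medians of all genes tested were -0.038, -0.001 and -0.010, and the median standard error of a member's change was 0.092. With scaling to library totals, 27, 20 and 27 were negative in ventricle. In atria 19, 18 and 24 were negative, with medians of -0.026, -0.003 and -0.086 against 0.002, -0.003 and -0.005 for all genes. Leaving out any 1 library kept the ventricular medians between -0.150 and -0.056. These medians were not tested, and all comparisons share the +dox libraries of their chamber. The 95% intervals lay within 1.5-fold for most members. In ventricle this held for 31, 32 and 32 of them, against 48.7%, 48.5% and 49.2% of all genes. In atria it held for 32, 31 and 32, against 54.8%, 55.3% and 53.6%. The exceptions were Hnrnpa0 with MBNL1 in ventricle (down to 0.658-fold, log2 -0.275, and log2 -0.156 without MBNL1 replicate 1, its lowest library) and Srsf5 with MBNL2 in atria (up to 1.61-fold).

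**Figure D4:**
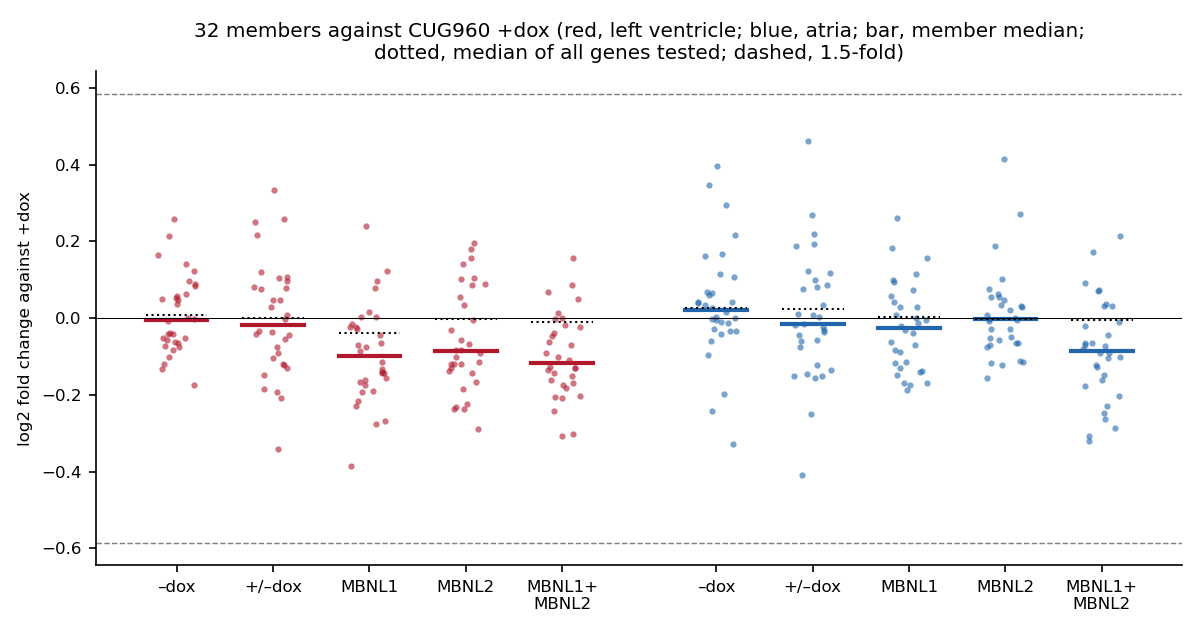
Log2 fold change against +dox of the 32 members (points) in the 5 comparisons of each chamber (red, left ventricle; blue, atria), with the member median as a bar, the median of all genes tested as a dotted line and 1.5-fold as dashed lines. All points lie between the dashed lines, and the ventricular MBNL1+MBNL2 median is the lowest, at -0.118.

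Marker sums of other cell types moved with some of these groups, while macrophage and smooth muscle and pericyte sums overlapped +dox in every cohort. In ventricle all 5 endothelial markers were found. They summed to between 175 and 179 TPM in +dox, 216 and 277 in –dox and 226 and 246 in +/–dox. The sums were 185 to 228 TPM with MBNL1, 217 to 246 with MBNL2 and 184 to 234 with MBNL1+MBNL2, all above +dox. All 5 red blood cell markers summed to between 393 and 1240 TPM in ventricular +dox and to between 1840 and 4150 in –dox and 2350 and 2930 in +/–dox. In atria the endothelial markers summed to between 207 and 224 TPM in +dox, 253 and 309 in –dox and 228 and 272 in +/–dox. With MBNL1+MBNL2 in atria they summed to between 230 and 269 TPM. The 6 fibroblast markers ranged from 652 to 707 TPM in ventricular +dox and from 716 to 820 in +/–dox. They ranged from 778 to 1060 in ventricular MBNL2 and from 779 to 995 in MBNL1+MBNL2. In atria they ranged from 1060 to 1330 TPM in +dox and from 1420 to 1540 in –dox. The 6 cardiomyocyte markers summed to between 26200 and 28200 TPM in ventricular +dox and 31300 and 33000 in +/–dox, and to between 26900 and 27800 TPM in atrial +dox, 29100 and 30200 in –dox and 29700 and 31600 in +/–dox. Atrial markers in atria summed to between 39700 and 42800 TPM in +dox, 53900 and 57300 in –dox and 55400 and 60300 in +/–dox. With MBNL1 and MBNL1+MBNL2 they lay above +dox, and with MBNL2 they overlapped it. Ventricular markers in ventricle lay below +dox with MBNL2 and MBNL1+MBNL2 and overlapped it otherwise. None of these atrial or ventricular markers passed the adjusted p against +dox by edgeR. No cardiomyocyte, endothelial, red blood cell or fibroblast marker had a mean of 0 in any group. Gene by gene (edgeR), all 5 endothelial markers and 0 of 5 red blood cell markers passed the adjusted p in ventricular –dox and +/–dox. The shares of all genes were 20.9% and 21.8%. With MBNL1, MBNL2 and MBNL1+MBNL2 in ventricle, 1, 0 and 1 of 5 endothelial markers and 1, 2 and 1 of 6 fibroblast markers passed. The shares of all genes were 8.95%, 7.43% and 8.34%. In atrial –dox 3 of 6 fibroblast and 3 of 5 endothelial markers passed, against 15.9%. In each chamber 2 of 4 smooth muscle and pericyte markers passed in –dox and 2 in +/–dox, where the atrial +/–dox share of all genes was 12.6%. Of 6 cardiomyocyte markers 1 and 3 passed in ventricular –dox and +/–dox, and 2 and 2 in atrial. Of 5 macrophage markers 1 passed in ventricular –dox and 0 in ventricular +/–dox. The part of all these markers in the member changes was not tested.

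Chambers were compared in –dox, in which the repeat RNA was not induced. None of the 32 members was called, against 24.9% of all genes, and 11 passed the adjusted p alone, against 42.6% of all genes. By the study's sample list both chambers came from the same animals. With a term for each animal none was called, against 4812 of the 19231 genes tested, and 14 passed, against 8861. The 14 were the 11 and also Srsf11 (log2 -0.175, adjusted p = 0.0345, edgeR), Hnrnpf (0.148, 0.0145) and Hnrnpc (0.164, 0.0384). Hnrnpa2b1 was higher in ventricle, at 455, 513 and 445 CPM against 356, 346 and 306 CPM in atria, a log2 fold change of 0.488 ± 0.097 (adjusted p = 1.1e-04, edgeR). Hnrnph3 was higher in ventricle as well, at 22.5, 25.5 and 25.7 against 17.1, 17.5 and 19.1 CPM, and so was Srsf2, at 65.2, 62.7 and 72.0 against 52.6, 46.8 and 54.5 CPM, with changes of 0.459 ± 0.113 and 0.377 ± 0.099. In each of these genes the chambers did not overlap.

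Hnrnph1, Hnrnpab and Hnrnpa3 were higher in ventricle by 0.309, 0.288 and 0.253 in log2. Hnrnph2, an X-linked paralogue of Hnrnph1, was lower, at 73.1, 75.7 and 72.5 CPM in ventricle against 95.3, 94.0 and 84.6 CPM in atria (log2 -0.308 ± 0.083, adjusted p = 0.00285, edgeR). Srsf9, Srsf4, Hnrnpul1 and Hnrnpll were lower, with log2 fold changes of -0.302, -0.269, -0.252 and -0.203. Of the 3 genes of the hnRNP H group, 2 were thus higher and 1 lower in ventricle after TMM normalisation, and with scaling to library totals Hnrnph1 turned to -0.009.

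The direction depends on the scaling. The TMM factors were between 0.856 and 0.959 in ventricle and between 1.03 and 1.15 in atria, and with library totals alone the median of all genes moved from -0.028 to -0.346. The median of the members was 0.020 after TMM and -0.298 with totals, above that of all genes both times. With totals 3 of 32 members were called and 20 passed the adjusted p, against 5970 and 10385 of the 19231 genes tested. On that scaling 29 members were lower in ventricle, and Hnrnpa3, Hnrnpab and Hnrnph1 turned to -0.063, -0.029 and -0.009. Srsf2, Hnrnpa2b1 and Hnrnph3 kept 0.059, 0.171 and 0.141 at adjusted p of 0.679, 0.0909 and 0.369 by edgeR. The lower genes Hnrnph2 and Hnrnpul1 stayed below an adjusted p of 0.05 in every refit, totals included. On the TPM scale the members summed to between 1544 and 1898 TPM in ventricle and between 1983 and 2324 TPM in atria, and Hnrnpa2b1 was near equal at means of 377 and 380 TPM.

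Among the members lost when 1 library was left out, Srsf4 had an adjusted p of 0.0504 and 0.0555 without ventricular –dox replicates 1 and 2, and Hnrnph1 of 0.0638 without ventricular replicate 1. Srsf9 had 0.109, 0.0683 and 0.0557 without ventricular replicate 2 and atrial replicates 1 and 3, and Hnrnpa3 had 0.157, 0.0619 and 0.109 without ventricular replicate 2 and atrial replicates 2 and 3. Hnrnpll had between 0.0563 and 0.2 in 5 of its 6 refits, all but the one without atrial replicate 3, and 0.0636 by DESeq2, 0.0648 with DESeq2's size factors in edgeR and 0.0739 with no filter on low counts.

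The length of transcript behind each gene was read from the ratio of expected count to TPM. That ratio is the effective length that the quantification gave the gene, which depends on its mix of isoforms but not on that alone. The ratio was divided by that of the median gene of its library and tested with limma over 9070 genes. After this scaling Hnrnpa0, with 1 annotated transcript, still ran from 0.9973 to 1.003 between libraries. From ventricular +dox replicate 1 to replicate 3, the short Srsf9 went from 0.3778 to 0.3865 and the long Hnrnpu from 3.0429 to 3.0059. In –dox against +dox 1 member changed in ventricle, against 2.06% of all genes, and 0 in atria, against 1.76%. In +/–dox against +dox 3 changed in ventricle, against 2.29%, and 1 in atria, against 1.7%. In MBNL1, MBNL2 and MBNL1+MBNL2 against +dox 1, 0 and 0 changed in ventricle, against 1.43%, 0.342% and 0.882%, and 0 in each of the atrial comparisons, against 0.143%, 0.011% and 0.176%. By limma at an unadjusted p below 0.05, 3, 1, 1 and 0 members stood in the atrial –dox, MBNL1, MBNL2 and MBNL1+MBNL2 comparisons and 3 and 5 in the ventricular MBNL2 and MBNL1+MBNL2 comparisons. DESeq2 was not run on this ratio, which is not a count.

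These counts rest on few libraries. The share of all genes is not given for the refits that follow, so their counts cannot be set beside it. Without ventricular +dox replicate 3, the number of members with a changed length was 2, 8, 7, 4 and 8 for –dox, +/–dox, MBNL1, MBNL2 and MBNL1+MBNL2 in ventricle. It was 0 for –dox without +dox replicate 1 or 2 or –dox replicate 1 or 2, and 2 without –dox replicate 3. For +/–dox it was 0 without +dox replicate 1 or 2 or +/–dox replicate 2 or 3. For MBNL1 it was 0 without +dox replicate 1 or MBNL1 replicate 1 and 3 without MBNL1 replicate 3, and a lower limit of 1 in place of 5 TPM gave 12. For MBNL1+MBNL2 it was 2 without replicate 3 of that cohort, and for atrial +/–dox it was 0 without +dox replicate 2 or +/–dox replicate 1.

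Hnrnpd had the largest change in length, in atrial +/–dox. Its relative length was 0.825, 0.806 and 0.819 in ventricular +dox, 0.917, 0.910 and 0.884 in +/–dox and 0.904, 0.912 and 0.864 in –dox. Both groups off dox lay above all +dox libraries, with log2 changes of 0.146 ± 0.038 (adjusted p = 0.0367, limma) and 0.129 ± 0.038 (adjusted p = 0.0874). In atria it was 0.871, 0.867 and 0.915 in +dox, 1.06, 1.00 and 0.951 in +/–dox and 0.980, 0.977 and 0.939 in –dox, with log2 changes of 0.182 ± 0.038 (adjusted p = 0.00574, limma) and 0.126 ± 0.038 (adjusted p = 0.118) and again no overlap. The length of Hnrnpa3 changed by 0.147 in ventricular +/–dox and 0.116 in –dox, and by 0.143 and 0.121 in atria. None of these Hnrnpa3 changes passed the adjusted p.

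With MBNL1, MBNL2 and MBNL1+MBNL2 the Hnrnpd length changed by 0.018, 0.027 and 0.081 in ventricle and by 0.010, 0.031 and 0.002 in atria, none past the adjusted p. The atrial +/–dox adjusted p was 0.0519 without +dox replicate 2 and 0.0872 without +/–dox replicate 1. The ventricular one was 0.0838 and 0.160 without +dox replicates 1 and 2 and 0.148, 0.131 and 0.056 without +/–dox replicates 1, 2 and 3, and 0.0758 with only the ventricular libraries. A change in length can come from either coding exon printed above, from another end of the transcript or from the effective length estimate itself. The gene-level values do not tell these apart.

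Hnrnpc was longer in ventricle off dox. It had 0.643, 0.626 and 0.661 in +dox, 0.671, 0.671 and 0.660 in –dox and 0.661, 0.668 and 0.673 in +/–dox, with log2 changes of 0.054 ± 0.013 (adjusted p = 0.0203, limma) and 0.053 ± 0.013 (adjusted p = 0.0195). The +dox values were spread wide, and the –dox group overlapped them. With MBNL1, MBNL2 and MBNL1+MBNL2, where dox was continued, the ventricular changes were 0.047, 0.019 and 0.038. Their adjusted p were 0.0658, 0.435 and 0.171 (limma), and the MBNL1 libraries all lay above +dox. These values therefore do not set the off-dox groups apart. The –dox and +/–dox changes were each lost in 5 refits. With only the ventricular libraries the adjusted p was 0.142 in –dox and 0.131 in +/–dox, and with 1 library left out it was 0.0697, 0.234, 0.112 and 0.0751 (+dox replicates 1 and 2, –dox replicates 1 and 2) and 0.0653, 0.209, 0.0652 and 0.119 (+dox replicates 1 and 2, +/–dox replicates 2 and 3).

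Hnrnpa2b1 was 1.01-fold longer in ventricle in +/–dox (adjusted p = 0.0424, limma) and with MBNL1 (adjusted p = 0.0254). Its relative length was 0.5726, 0.5709 and 0.5726 in +dox, 0.5758, 0.5781 and 0.5776 in +/–dox and 0.5778, 0.5783 and 0.5776 with MBNL1, with no overlap, so that a change of about 1% was larger than the spread. Every ventricular library of –dox, MBNL2 and MBNL1+MBNL2 also lay above +dox, the shared reference, with log2 changes of 0.008, 0.011 and 0.013. Their adjusted p of 0.461, 0.248 and 0.0919 (limma) did not pass. Whether isoform use gave these changes was not tested. The MBNL1 change had an adjusted p of 0.086 without the library that stood apart, MBNL1 replicate 1, of 0.0507 without MBNL1 replicate 2, and of 0.0547 and 0.134 without +dox replicates 1 and 2. The +/–dox change had 0.0662 and 0.189 without +dox replicates 1 and 2, 0.165 and 0.122 without +/–dox replicates 2 and 3, and 0.07 with a lower limit of 1 TPM.

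**Figure D5:**
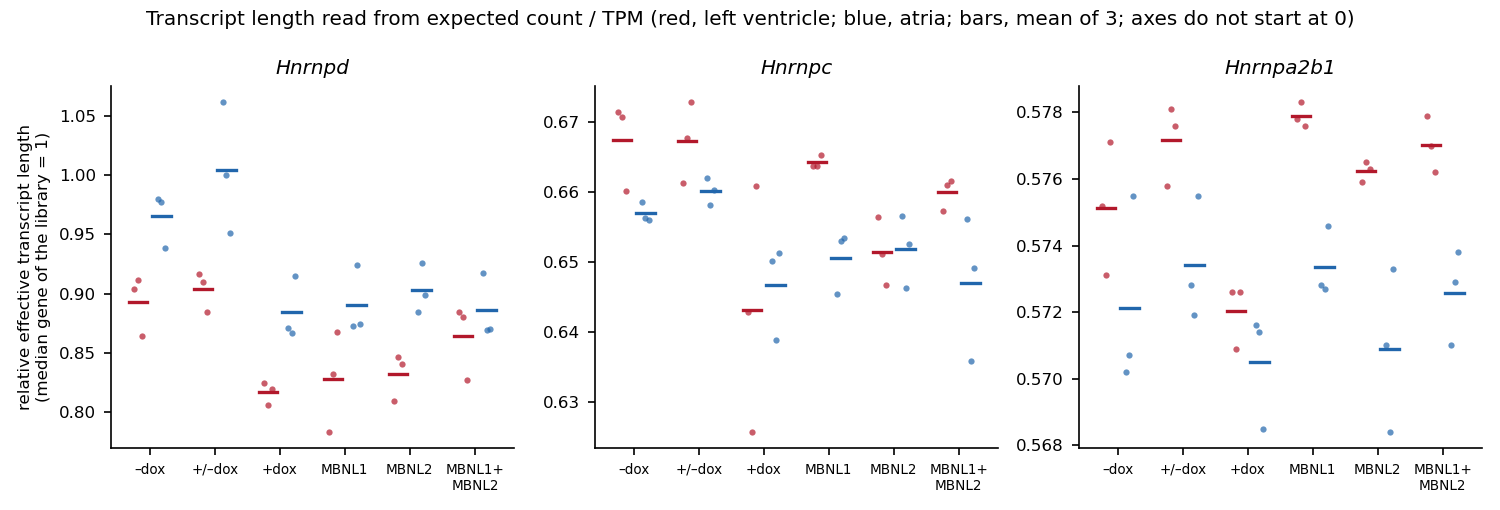
Relative effective transcript length of Hnrnpd, Hnrnpc and Hnrnpa2b1 in every library by cohort (red, left ventricle; blue, atria; points, 3 libraries per group; bars, their mean; axes do not start at 0). Hnrnpd reaches 0.884 to 0.917 in ventricular +/–dox against 0.806 to 0.825 in +dox, while the whole range of Hnrnpa2b1 is 0.568 to 0.578.

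Other genes of the pathway were described from 3 lists, whose counts stand beside the share of all genes that passed the adjusted p in the same comparison: 20.9%, 21.8%, 8.95%, 7.43% and 8.34% for –dox, +/–dox, MBNL1, MBNL2 and MBNL1+MBNL2 in ventricle and 15.9% and 12.6% for –dox and +/–dox in atria. Of 8 kinases and importers of SR proteins, 1 rose and 1 fell in ventricular –dox against +dox: Clk4, a kinase that phosphorylates SR proteins in the nucleus, rose by 0.247 ± 0.090 in log2 (adjusted p = 0.0493, edgeR), and Srpk2, a cytoplasmic SR protein kinase, fell by 0.267 ± 0.092 (adjusted p = 0.0363). In atria 2 rose and 1 fell: Clk1 and Clk4 rose by 0.427 ± 0.092 and 0.448 ± 0.091, and the SR protein importer Tnpo3 fell by 0.310 ± 0.061. With MBNL1, MBNL2 and MBNL1+MBNL2, 1, 0 and 1 rose in ventricle (Clk3 by 0.390 and Srpk3 by 0.323), Clk3 changing by 0.311 at an adjusted p of 0.0738 by edgeR without MBNL1 replicate 1, and none passed in atria. In +/–dox against +dox 2 rose and 1 fell in ventricle (Srpk3 by 0.401, Clk3 by 0.352 and Srpk2, which fell by 0.302), and in atria Clk1, Clk3 and Clk4 rose by 0.332, 0.343 and 0.368 and Tnpo3 fell by 0.328. None of the 8 was called in any comparison.

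Of 10 hnRNPs and partners under other symbols, Pcbp2, a poly(C)-binding protein, rose by 0.180 ± 0.055 and Tnpo1, the importer of hnRNP A1, fell by 0.415 ± 0.076 in ventricular –dox, and in atria only Raly, a relative of hnRNP C, changed, by -0.314 ± 0.065. In +/–dox ventricle Ptbp1, Pcbp1 and Pcbp2 rose by 0.303, 0.356 and 0.210 and Syncrip and Tnpo1 fell by 0.349 and 0.520, and in +/–dox atria Raly and Tnpo1 fell by 0.241 and 0.255. With MBNL1, MBNL2 and MBNL1+MBNL2 in ventricle, Syncrip, which encodes hnRNP Q, fell by 0.279, 0.288 and 0.297 and Tnpo1 by 0.340, 0.379 and 0.327 (by 0.356 and 0.381 with MBNL1 when its replicate 1 was left out), and with MBNL1+MBNL2 Pcbp1 rose by 0.298. Of 13 genes of splice site recognition, Snrpc, which encodes a U1 snRNP protein, fell by 0.441 ± 0.101 in ventricular and 0.421 ± 0.101 in atrial –dox, Sf1 and Son rose in ventricle by 0.307 and 0.154, and Luc7l rose in atria by 0.370. In +/–dox ventricle Sf1 rose by 0.327 and Luc7l2 fell by 0.301. None of the 13 passed the adjusted p in any comparison of an MBNL cohort with +dox when all libraries were fitted. Without MBNL1 replicate 1, Luc7l2 fell with MBNL1 in ventricle by 0.271 (adjusted p = 0.0448, edgeR). Ptbp1, of the 10 above, then rose by 0.293 (adjusted p = 0.0275), which it did not pass with all libraries.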

How the data were processed

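Left ventricle and atria of 3 animals in each of 6 cohorts gave 36 RNA-seq libraries, grouped by the labels. The authors aligned reads with STAR 2.7.10b to mm10 and estimated expected counts per gene with RSEM 1.3.1, and these were deposited without normalisation. The deposited TPM values come from the same RSEM run and correct the counts for effective length and depth. The labels do not tie replicates to cultures or litters, so p-values measure the spread between these animals.

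Expected counts were rounded and fitted in R 4.3.3 with edgeR 4.0.16 (quasi-likelihood test, TMM, all 36 libraries in 12 groups, low counts filtered), which tested 19231 genes. TPM served for levels between genes. Effective length (expected count over TPM) was tested on the log2 scale with limma 3.58.1 for genes of mean TPM of at least 5. p-values were Benjamini-Hochberg adjusted over all genes tested, and a call needed an adjusted p below 0.05 and, for expression, 1.5-fold. Alternatives were DESeq2 1.42.0, its size factors, no filter, chamber-only fits, library number series as a term, a replicate block, leaving out each library and, added after the data were seen, scaling to library totals and a term for each animal in the chamber comparisons. The tests were tried on simulated data for ventricular –dox against +dox. At an adjusted p below 0.05, edgeR recovered 0, 10, 46 and 50 of 50 genes changed 1.25-, 1.5-, 2- and 4-fold. Those counts had the same spread set for all genes, not that of the members. Length shifts of 0.05, 0.1 and 0.2 in log2 were recovered for 30, 36 and 47 of 50 genes. No replicates agreed within sampling noise (lowest chi-square per gene 9.62).

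Samples with the same number deviated together, with every correlation above 0.1, in 1 of 13 comparisons, that of the chambers, which by the study's sample list came from the same animals.

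The members and lists were chosen with earlier results of these data known. Values in full were set for called members, the 8 largest changes past the adjusted p in –dox against +dox in each chamber, the 5 highest and 3 lowest members in mean TPM, and the 6 largest changes of length past the adjusted p in –dox. Members named in the other comparisons were chosen after their values were seen.

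1 result of the pathway lists is not reported here.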

Additional observations from a re-analysis of the deposited data

How the results depend on the processing

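No member was called in 187 of 188 refits of the counts of called members. The exception was the chambers scaled to library totals, with 3 called, against 5970 of the 19231 genes tested. Without the 1.5-fold limit the counts were 1, 4, 1, 1 and 2 in ventricle (–dox, +/–dox, MBNL1, MBNL2 and MBNL1+MBNL2 against +dox), 4 and 3 in atrial –dox and +/–dox, and 11 between the chambers. Of 351 refits of members that passed the adjusted p, 248 stayed on the same side, 100 lost it and 3 reversed, the last being Hnrnpa3, Hnrnpab and Hnrnph1 between the chambers with library totals, at -0.063, -0.029 and -0.009. Of 60 refits of lengths, 33 stayed and 27 lost the call. The share of all genes is not given for the counts of changed lengths in refits. With only the libraries of the chamber, members with a changed length numbered 0 and 1 in ventricular –dox and +/–dox and 2 in atrial +/–dox. In ventricular MBNL1 they numbered 12 with a limit of 1 TPM and 2 with the library number series as a term. With 1 library left out they ranged from 0 to 2 in ventricular –dox, 0 to 8 in +/–dox, 0 to 7 in MBNL1, 0 to 4 in MBNL2 and 0 to 8 in MBNL1+MBNL2, and from 0 to 1 in atrial +/–dox. The causes were not tested beyond the construction of each refit.

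With a replicate block, members with a changed length numbered 3 in ventricular MBNL1 and 6 in MBNL1+MBNL2, again without the share of all genes. By the study's sample list, animals are shared only between the chambers. There the replicate block left no member called and 13 past the adjusted p, against 4840 and 8409 of the 19231 genes tested. It added Hnrnpf (0.15, adjusted p = 0.0231, edgeR) and Hnrnpc (0.164, adjusted p = 0.0481) to the 11. With a term for each animal, chosen after seeing the data, 14 passed, against 8861 of all genes. Elsewhere the correlations of same-numbered samples ran from -0.115 to 0.29, the highest for replicate 3 in atrial MBNL1 against +dox.

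With 3 animals per group, small changes near the threshold depend on single libraries. The lowest count of a member in a library was 391. Library number series and, by the sample list, sex composition cannot be told apart from the MBNL1+MBNL2 cohort. RSEM lengths depend on the annotated isoforms.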
